A study of Mus musculus with 6 samples.

Results

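The 10 genes described here, *Sesn1*, *Sesn2*, *Bax*, *Bbc3*, *Pmaip1*, *Ccng1*, *Phlda3*, *Trp53inp1*, *Zmat3* and *Eda2r*, are known transcriptional targets of p53. They were chosen by symbol, and all 10 were found among the 24982 genes listed in each coverage file. RNA-seq compared 2 untreated keratinocyte lines from the skin of neonatal C57BL/6 mice, with 3 libraries each. The KSFM-Ca2+ cells were derived and kept in a low-calcium medium, and the DKSFM cells are their descendants, adapted to and kept in a defined medium with more calcium. The DKSFM cells stem from the fraction of cells that outlived a large cell loss after the change of medium, so that medium, adaptation and survival of a subpopulation cannot be told apart. Nothing in the labels says whether the replicates came from separate cultures, so the p-values measure the spread between these libraries, which may be technical.

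The transcription factor p53, encoded by *Trp53*, is kept scarce by MDM2, which marks it for breakdown, and accumulates when DNA damage or other stress blocks its breakdown. It binds paired sequence elements near its targets and raises the transcription of genes that halt the cell cycle, repair DNA, restrain growth signalling or start mitochondrial cell death. In the epidermis p53 takes part in the response to ultraviolet light, while its relative p63, encoded by *Trp63*, maintains the basal keratinocytes and can bind some of the same elements.

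Each file lists the mean read coverage per base of each gene, to 1 decimal and without scaling to library size. The coverage summed over all genes was 1601676, 1238411 and 1057751 in replicates 1 to 3 of the KSFM-Ca2+ cells and 1174348, 1239438 and 1170675 in those of the DKSFM cells. Values below are coverage after scaling between libraries, and since they are given per base they were also set side by side between genes, although how the gene length entered is not stated. Both lines carried the keratinocyte program. All 10 keratinocyte markers were measured in every library, with a summed coverage of 19453, 19838 and 19457 in the KSFM-Ca2+ libraries and 45866, 41937 and 46258 in the DKSFM libraries, and *Krt14* was the most abundant. The median log2 fold change of these markers, DKSFM over KSFM-Ca2+, was only 0.25. At an adjusted p under 0.01 (limma) 7 were higher and 2 lower, compared with 35.5% and 37.1% of all tested genes. Markers of other skin cells were low or at 0. Of 8 fibroblast markers 7 were listed at 0 in every library (*Col1a1*, *Col1a2*, *Col3a1*, *Pdgfrb*, *Dcn*, *Lum* and *Thy1*), and their summed coverage, all from *Pdgfra*, was 1.14, 0.890 and 1.30 in the KSFM-Ca2+ libraries and 2.34, 2.10 and 2.23 in the DKSFM libraries.

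The 6 melanocyte markers, with *Dct* and *Tyr* at 0 and *Pmel* the most abundant, summed to between 0.212 and 0.890 in any library. The 7 immune markers, with *Cd3e*, *Adgre1* and *Tyrobp* at 0, summed to at most 0.2 in any library. *Itgam* was the most abundant of them in the DKSFM libraries and was listed at 0 in every KSFM-Ca2+ library. The 5 endothelial markers, with *Cdh5* and *Emcn* at 0, summed to 2.82, 3.16 and 3.30 in the KSFM-Ca2+ libraries and 8.28, 8.29 and 7.42 in the DKSFM libraries, nearly all of it from *Pecam1*, which was higher past the 2-fold threshold in the DKSFM cells. The 4 Merkel cell markers, with *Atoh1* at 0, summed to 5.56, 5.14 and 3.54 in the KSFM-Ca2+ libraries and 8.71, 8.69 and 8.06 in the DKSFM libraries, mostly from *Sox2*. The part of these low signals in the results was not tested.

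*Sesn1* was the gene of the 10 that passed the 2-fold threshold. It encodes sestrin 1, a stress-induced protein that restrains mTORC1, the kinase complex that drives cell growth. Its coverage was 18.5, 16.6 and 13.5 in replicates 1 to 3 of the KSFM-Ca2+ cells and 198, 196 and 189 in those of the DKSFM cells. Every DKSFM library lay far above every KSFM-Ca2+ library, and the DKSFM libraries differed little among themselves. The mean was 16.2 ± 2.56 (SD, n = 3) in the KSFM-Ca2+ cells and 194 ± 4.99 (SD, n = 3) in the DKSFM cells, a 12.0-fold difference. In the fit across all tested genes the log2 fold change, DKSFM over KSFM-Ca2+, was 3.59 (standard error 0.10, 95% interval 3.35 to 3.82, adjusted p = 2.05e-08, limma). This change was larger in size than that of 95.8% of the 12409 genes tested. In level, *Sesn1* moved from above 40.9% of tested genes in the KSFM-Ca2+ cells to above 90.6% of them in the DKSFM cells. In bulk RNA, more cells that express a gene and more RNA of it per cell cannot be told apart.

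*Sesn2* encodes sestrin 2, which acts on the same pathway and also senses leucine. Its coverage was 14.2, 13.9 and 14.3 in the KSFM-Ca2+ libraries and 14.3, 15.6 and 14.5 in the DKSFM libraries. The highest KSFM-Ca2+ library lay just under the lowest DKSFM library, and the difference did not pass the test (log2 fold change 0.07, 95% interval -0.06 to 0.19, adjusted p = 0.285, limma), and under quantile normalization the log2 fold change was -0.0019. The ratio of *Sesn1* to *Sesn2* was 1.31, 1.19 and 0.942 in the KSFM-Ca2+ libraries and between 12.5 and 13.8 in the DKSFM libraries. *Sesn3*, the remaining sestrin gene, fell by less than 2-fold (4.22 ± 0.249 against 2.57 ± 0.283, SD, n = 3; log2 fold change -0.70 with a standard error of 0.11, limma adjusted p = 5.26e-04). Summed over the family, coverage was 37.2, 34.7 and 31.7 in the KSFM-Ca2+ libraries and 215, 213 and 206 in the DKSFM libraries. *Sesn1* made up 42.4% to 49.8% of that sum in the KSFM-Ca2+ libraries and 91.6% to 92.2% in the DKSFM libraries.

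**Figure D1:**
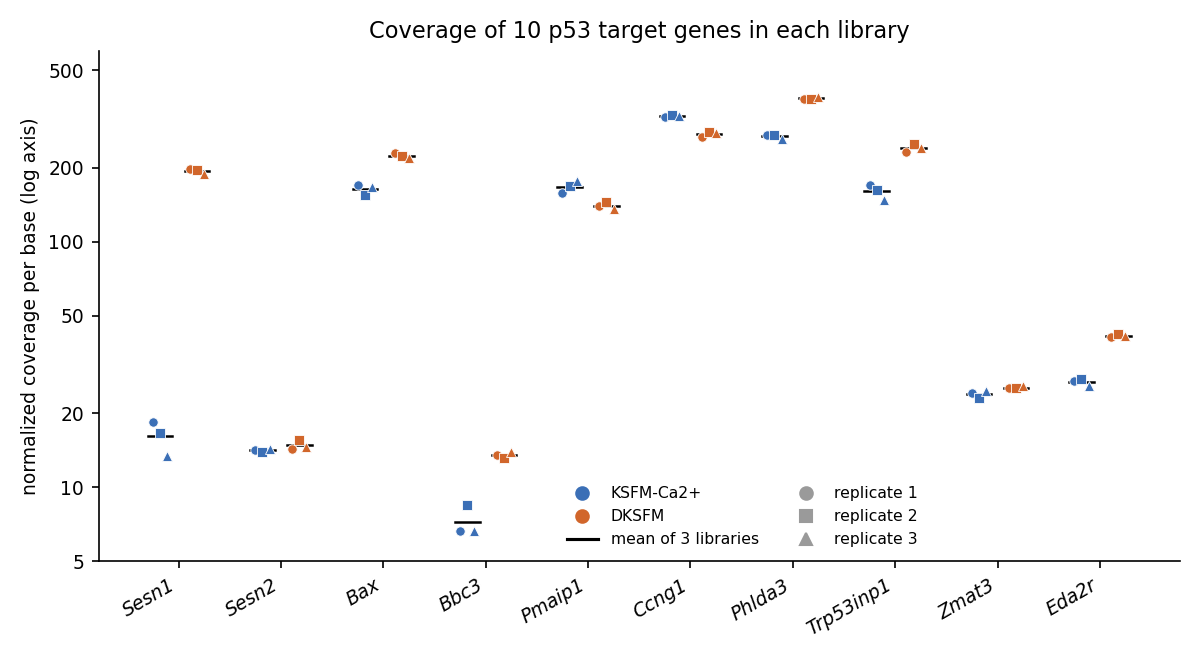
Normalized coverage per base (log axis) of the 10 p53 target genes in each of the 6 libraries, with a marker per replicate and a bar at the mean of 3 libraries. *Sesn1* lies between 13.5 and 18.5 in the KSFM-Ca2+ libraries and between 189 and 198 in the DKSFM libraries, and the means of the other 9 genes differ by less than 2-fold.

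Promoter sequences were searched for the p53 consensus element, since the genes share this factor. The element was taken as a pair of 10-base consensus motifs up to 13 bases apart, with the fixed C and G kept in each motif and at most 2 mismatches elsewhere in the pair. The motif equals its own reverse complement, so that both strands were searched at once. The windows, from RefSeq on GRCm38.p6, run from 250 bases before to 50 bases after each gene start. They were found for 7 of the 10 genes, 10 windows in all, and not for *Pmaip1*, *Zmat3* and *Trp53inp1*. A match was present in 3 of the 10 windows, compared with 4.09% of all 32851 windows. Counted by gene, 3 of the 7 had a match, compared with 4.71% of all genes with a window. Among the further p53 targets listed below, 5 of 26 genes with a window had a match. A match describes the letters only and is no sign of binding, and elements outside these windows were not searched. *Sesn1* had windows at 2 starts, and the match lay in that of the downstream start. The stretches from 250 to 101 bases before the start are shown for the 3 genes, 5′ to 3′ on the strand of the gene, with the bases of the motif pair in capitals. They lie at chr10:41887189-41887338 on the plus strand for *Sesn1*, at chr11:40755387-40755536 on the minus strand for *Ccng1* and at chr7:45466999-45467148 on the minus strand for *Bax*, and none of their bases falls in an annotated exon of the gene.
Sesn1: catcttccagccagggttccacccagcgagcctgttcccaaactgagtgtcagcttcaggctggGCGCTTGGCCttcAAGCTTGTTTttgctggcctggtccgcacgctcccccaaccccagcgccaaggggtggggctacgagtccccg
Ccng1: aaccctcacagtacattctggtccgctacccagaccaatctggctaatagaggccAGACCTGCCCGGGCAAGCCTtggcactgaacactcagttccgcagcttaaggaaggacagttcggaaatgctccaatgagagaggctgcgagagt
Bax: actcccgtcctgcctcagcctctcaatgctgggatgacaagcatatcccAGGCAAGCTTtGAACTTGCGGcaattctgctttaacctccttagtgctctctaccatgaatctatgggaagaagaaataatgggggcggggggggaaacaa
The match in *Ccng1* had 1 mismatch and no spacer, that in *Bax* 2 mismatches and a spacer of 1 base, and that in *Sesn1* 2 mismatches and a spacer of 3 bases. The 3 genes with a match differed in their response: *Sesn1* was 12.0-fold higher in the DKSFM cells, *Bax* was higher by less than 2-fold and *Ccng1* was lower, as given below. Coverage was listed per gene, so that transcripts from the separate *Sesn1* starts were not told apart.

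Among the genes of mitochondrial cell death, *Bax* encodes the protein that forms pores in the outer mitochondrial membrane. Its coverage was 170, 156 and 167 in the KSFM-Ca2+ libraries and 230, 224 and 220 in the DKSFM libraries. The lines did not overlap, and the difference was well under 2-fold (log2 fold change 0.45 with a standard error of 0.04, limma adjusted p = 9.88e-06). *Bbc3* encodes PUMA, a BH3-only protein that frees or activates BAX. It had the lowest coverage of the 10 genes in both lines, 6.63, 8.50 and 6.61 in the KSFM-Ca2+ libraries and 13.5, 13.2 and 13.9 in the DKSFM libraries. KSFM-Ca2+ replicate 2 stood above the other KSFM-Ca2+ libraries and below every DKSFM library. The log2 fold change of *Bbc3* was 0.90 (standard error 0.10, 95% interval 0.66 to 1.14, adjusted p = 6.06e-05, limma), just short of 2-fold, and without KSFM-Ca2+ replicate 2 it was 1.02, which put *Bbc3* past the threshold. *Pmaip1* encodes NOXA, a BH3-only protein that binds MCL1. Its coverage was 158, 169 and 177 in the KSFM-Ca2+ libraries and 139, 145 and 136 in the DKSFM libraries. All DKSFM libraries lay below the KSFM-Ca2+ libraries, the opposite direction to *Bax* and *Bbc3*, by a small amount (log2 fold change -0.26 with a standard error of 0.05, limma adjusted p = 9.40e-04).

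*Ccng1* encodes cyclin G1, which brings the phosphatase PP2A to MDM2 and so takes part in the feedback on p53. It was the most abundant of the 10 genes in the KSFM-Ca2+ cells, with 321, 329 and 325 in the libraries of that line and 268, 280 and 277 in the DKSFM libraries. The DKSFM libraries were lower without overlap (log2 fold change -0.24 with a standard error of 0.03, limma adjusted p = 6.46e-05). *Phlda3* encodes a small protein with a pleckstrin homology domain that competes with the kinase AKT for membrane lipids. Its coverage was 272, 273 and 262 in the KSFM-Ca2+ libraries and 380, 381 and 390 in the DKSFM libraries. All DKSFM libraries were higher, and *Phlda3* was the most abundant of the 10 genes in that line (log2 fold change 0.51 with a standard error of 0.03, limma adjusted p = 6.54e-07). *Trp53inp1* encodes a stress protein that takes part in p53 activation and autophagy. Its coverage was 170, 163 and 148 in the KSFM-Ca2+ libraries and 231, 250 and 240 in the DKSFM libraries. Again all DKSFM libraries were higher (log2 fold change 0.58 with a standard error of 0.05, limma adjusted p = 1.77e-05).

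*Zmat3* encodes a zinc finger protein that binds RNA. Its coverage was 24.2, 23.0 and 24.8 in the KSFM-Ca2+ libraries and 25.3, 25.3 and 25.8 in the DKSFM libraries. The libraries of the lines lay side by side without overlap, and the difference did not pass the test (log2 fold change 0.08, 95% interval -0.02 to 0.19, adjusted p = 0.114, limma). *Eda2r*, on chromosome X, encodes a receptor of the TNF receptor family for the A2 form of ectodysplasin. Its coverage was 27.0, 27.7 and 25.8 in the KSFM-Ca2+ libraries and 41.1, 42.1 and 41.2 in the DKSFM libraries. Every DKSFM library was higher (log2 fold change 0.63 with a standard error of 0.04, limma adjusted p = 2.13e-06).

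Counted together, 1 of the 10 genes passed an adjusted p of 0.01 with a change of at least 2-fold, compared with 23.7% of the 12409 tested genes. At any fold, 8 of the 10 had an adjusted p under 0.01, compared with 72.6% of tested genes. Of the 10 genes 6 were higher and 2 lower in the DKSFM cells at this threshold, compared with 35.5% and 37.1% of all tested genes. The libraries of the lines did not overlap in any of the 10 genes, which also held for 83.3% of tested genes. The median log2 fold change was 0.48 for the 10 genes and 0.00 for all tested genes, and the median size of the change, regardless of direction, was 0.48 and 0.49. In size, the changes ran from *Sesn2*, larger than that of 7.56% of tested genes, to *Sesn1*. Summed over the 10 genes, coverage was 1175 ± 10.2 (SD, n = 3) in the KSFM-Ca2+ cells and 1554 ± 16.2 (SD, n = 3) in the DKSFM cells.

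**Figure D2:**
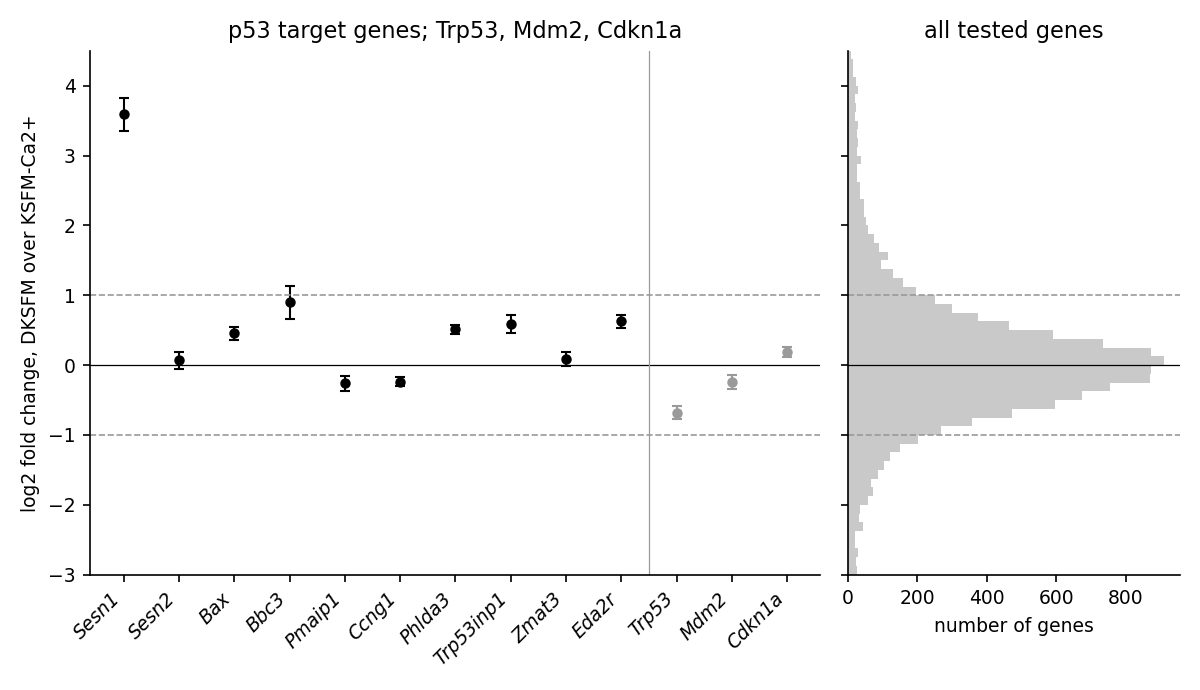
Left, log2 fold change of each of the 10 p53 target genes and of *Trp53*, *Mdm2* and *Cdkn1a* (grey), DKSFM over KSFM-Ca2+, with 95% intervals from limma. Right, the number of tested genes at each log2 fold change, with 478 genes beyond the axis. Dashed lines mark a 2-fold change, which *Sesn1* passes at 3.59 and the interval of *Bbc3* (0.66 to 1.14) spans.

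The order of levels also changed between the lines. In the KSFM-Ca2+ cells *Ccng1* (325 ± 4.05) was highest, followed by *Phlda3* (269 ± 6.11) and by *Pmaip1* (168 ± 9.72), *Bax* (164 ± 7.43) and *Trp53inp1* (161 ± 11.5), whose libraries overlapped. *Eda2r* (26.8 ± 0.932), *Zmat3* (24.0 ± 0.881), *Sesn1* and *Sesn2* (14.1 ± 0.171) and then *Bbc3* (7.25 ± 1.09) lay far below them, with the libraries of *Sesn1* and *Sesn2* overlapping. In the DKSFM cells the order was *Phlda3* (384 ± 5.09), *Ccng1* (275 ± 6.20), *Trp53inp1* (240 ± 9.30), *Bax* (225 ± 4.84), *Sesn1*, *Pmaip1* (140 ± 4.23), *Eda2r* (41.5 ± 0.529), *Zmat3* (25.4 ± 0.281), *Sesn2* (14.8 ± 0.677) and *Bbc3* (13.5 ± 0.350), and no neighbours in that order overlapped. All are means ± SD of 3 libraries. *Sesn1* went from the low group to the high group, and the highest gene was 44.8 times the lowest in the KSFM-Ca2+ cells and 28.4 times in the DKSFM cells.

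The paralogues of the 10 genes, which share their protein families, moved in their own ways. *Ccng2*, the cyclin G2 gene, had a coverage of 9.79 ± 0.935 in the KSFM-Ca2+ cells and 32.6 ± 1.84 in the DKSFM cells (SD, n = 3; log2 fold change 1.73 with a standard error of 0.08, limma adjusted p = 2.38e-07), so that the share of *Ccng1* in the sum of both genes was 96.7% to 97.3% in the KSFM-Ca2+ libraries and 89.0% to 89.7% in the DKSFM libraries. *Phlda1* and *Phlda2*, whose proteins carry the same kind of domain as PHLDA3, were both lower in the DKSFM cells. *Phlda1* had 30.3 ± 1.41 in the KSFM-Ca2+ cells and 8.88 ± 0.578 in the DKSFM cells (log2 fold change -1.76 with a standard error of 0.07, limma adjusted p = 8.16e-08). *Phlda2*, an imprinted gene, was listed at 4.1, 5.7 and 6.0 in the KSFM-Ca2+ libraries and 0.1, 0.1 and 0.3 in those of the DKSFM line, near the rounding step of 0.1. *Phlda3* thus rose while both of its paralogues fell, and its share of their sum was 87.3% to 89.5% in the KSFM-Ca2+ libraries and 97.5% to 97.8% in the DKSFM libraries.

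*Trp53inp2*, which takes part in autophagy, was higher in the DKSFM cells in the same direction as *Trp53inp1* and by more (29.8 ± 1.72 against 65.8 ± 0.703, SD, n = 3; log2 fold change 1.14 with a standard error of 0.05, limma adjusted p = 1.48e-07). *Bak1* encodes the pore-forming partner of BAX. Its coverage was 179, 178 and 188 in the KSFM-Ca2+ libraries and 130, 125 and 134 in the DKSFM libraries, in the opposite direction to *Bax*. The sum of *Bax* and *Bak1* was 349, 334 and 355 in the KSFM-Ca2+ libraries and 360, 349 and 354 in the DKSFM libraries. These sums overlapped, while the share of *Bax* in them was 46.6% to 48.7% in the KSFM-Ca2+ libraries and 62.2% to 64.2% in the DKSFM libraries. *Edar*, the receptor for the other form of ectodysplasin, was listed at 0, 0 and 0.1 in the KSFM-Ca2+ libraries and 0.6, 0.7 and 0.7 in those of the DKSFM line, so that *Eda2r* was the main ectodysplasin receptor gene in both lines. *Eda*, which encodes the ligands, went the other way from *Eda2r*, with 19.2 ± 1.36 in the KSFM-Ca2+ cells and 2.75 ± 0.820 in the DKSFM cells (SD, n = 3; log2 fold change -2.79 with a standard error of 0.18, limma adjusted p = 1.74e-06). Coverage per gene does not separate the forms of ectodysplasin, so the A2 form was not measured on its own. In all, of 10 tested relatives of the genes 3 were higher and 3 lower past the 2-fold threshold, compared with 13.2% and 10.5% of all tested genes, *Edar*, *Ccng2* and *Trp53inp2* being higher and *Phlda2*, *Eda* and *Phlda1* lower. Of these, *Edar* and *Phlda2* passed the filter only through the line where they are high.

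**Figure D3:**
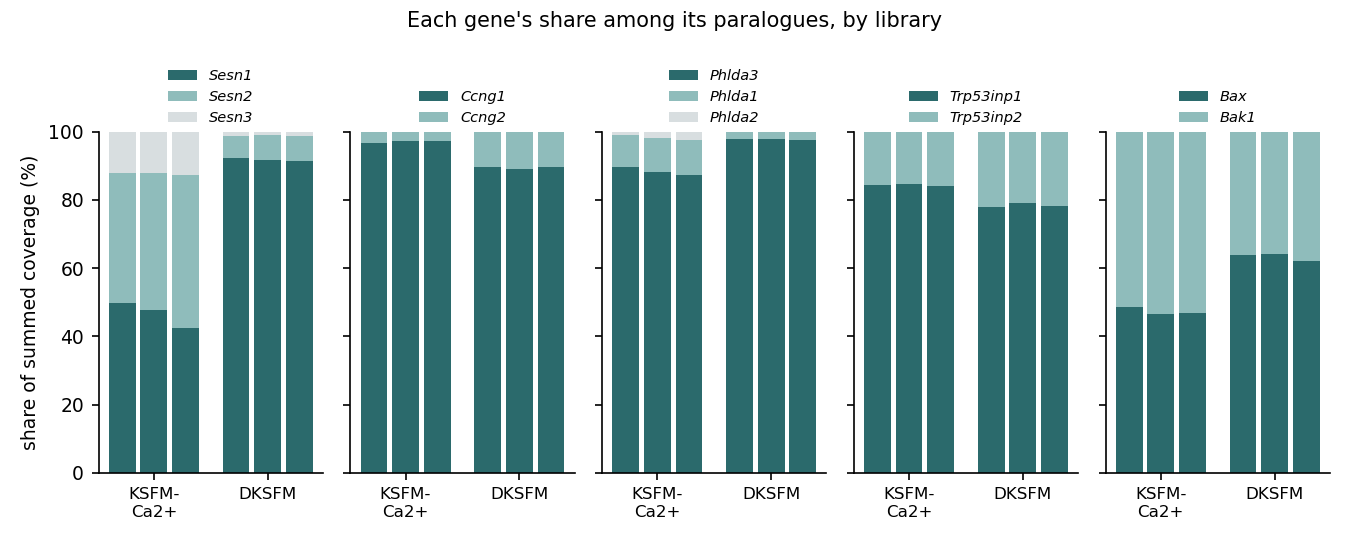
Share of the summed coverage (%, bars from 0 to 100) that each gene takes among its paralogues, with a bar for each library, replicates 1 to 3 from left to right in each line. *Sesn1* takes 42.4% to 49.8% in the KSFM-Ca2+ libraries and 91.6% to 92.2% in the DKSFM libraries, and *Bax* 46.6% to 48.7% and 62.2% to 64.2%.

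The gene of p53 itself was lower in the DKSFM cells, while its targets *Mdm2* and *Cdkn1a* changed little. *Trp53* had a coverage of 234, 236 and 245 in the KSFM-Ca2+ libraries and 143, 148 and 156 in the DKSFM libraries. The lines were well apart, at less than 2-fold (log2 fold change -0.68 with a standard error of 0.04, limma adjusted p = 8.05e-07). *Mdm2*, both a target and the main inhibitor of p53, had 144, 140 and 137 in the KSFM-Ca2+ libraries and 119, 126 and 113 in those of the DKSFM line (log2 fold change -0.24 with a standard error of 0.04, limma adjusted p = 0.00110). *Cdkn1a*, the gene of the cell cycle inhibitor p21, had 683, 655 and 689 in the KSFM-Ca2+ libraries and 756, 791 and 756 in those of the DKSFM line (log2 fold change 0.18 with a standard error of 0.03, limma adjusted p = 7.47e-04). *Cdkn1a* was thus higher and *Mdm2* lower in every DKSFM library, both by a small amount, and *Cdkn1a* was more abundant than any of the 10 genes in both lines. RNA levels do not measure the p53 protein, which is set largely by its breakdown.

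Of 19 measured genes of p53, its family and its regulators, 2 were higher and 1 lower past the 2-fold threshold, compared with 13.2% and 10.5% of all tested genes. *Trp73*, the gene of the family member p73, was listed at 0.1, 0.3 and 0.1 in the KSFM-Ca2+ libraries, at or near the rounding step, and 21.7, 22.5 and 22.0 in those of the DKSFM line. It was tested only through the line where it is high, so that its place in this count says little. *Cdkn2a*, which encodes the cell cycle inhibitor p16INK4a and, in another reading frame, the MDM2 inhibitor p19ARF, had 38.1, 38.4 and 40.7 in the KSFM-Ca2+ libraries and 193, 202 and 192 in those of the DKSFM line (log2 fold change 2.32 with a standard error of 0.04, limma adjusted p = 1.61e-09). Coverage per gene does not separate the transcripts of these products. *Chek1*, a checkpoint kinase gene, was lower, at 17.5 ± 1.23 in the KSFM-Ca2+ cells and 7.90 ± 0.801 in the DKSFM cells (SD, n = 3; log2 fold change -1.14, adjusted p = 5.96e-06, limma). *Trp63* was slightly higher in the DKSFM cells, with 404 ± 12.2 in the KSFM-Ca2+ cells and 443 ± 12.6 in the DKSFM cells (SD, n = 3). Its log2 fold change was 0.13 (limma adjusted p = 0.00658).

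A second list held 32 further genes widely given as p53 targets, *Cdkn1a* and *Mdm2* among them, of which 30 passed the filter. Past the 2-fold threshold 1 was higher, compared with 13.2% of all tested genes, and 4 were lower, compared with 10.5%. At any fold, 7 were higher and 16 lower at an adjusted p under 0.01, compared with 35.5% and 37.1% of all tested genes, and the median log2 fold change was -0.20, on the other side of 0 from that of the 10 genes (0.48). *Perp*, which encodes a membrane protein of desmosomes and is also a target of p63, had 1555, 1506 and 1487 in the KSFM-Ca2+ libraries and 4575, 4766 and 4660 in those of the DKSFM line (log2 fold change 1.62 with a standard error of 0.03, limma adjusted p = 2.50e-09). The 4 genes lower past the 2-fold threshold were *Epha2*, *Rrm2b*, *Plk3* and *Gdf15*. *Epha2* is a receptor tyrosine kinase gene (70.1 ± 2.75 against 22.1 ± 0.378), and *Rrm2b* encodes a p53-induced subunit of ribonucleotide reductase (27.8 ± 0.818 against 10.8 ± 0.824). The kinase gene *Plk3* had 47.5 ± 3.06 against 19.8 ± 0.943. *Gdf15*, the gene of a secreted stress cytokine, was listed at 1.1, 1.6 and 1.3 in the KSFM-Ca2+ libraries and 0.4, 0.2 and 0.2 in those of the DKSFM line. *Plk3* was named after its value was seen. *Gdf15* passed the filter only through the KSFM-Ca2+ libraries and lost its place past the threshold under 4 alternatives. The p53 targets as a group therefore did not move one way.

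**Figure D4:**
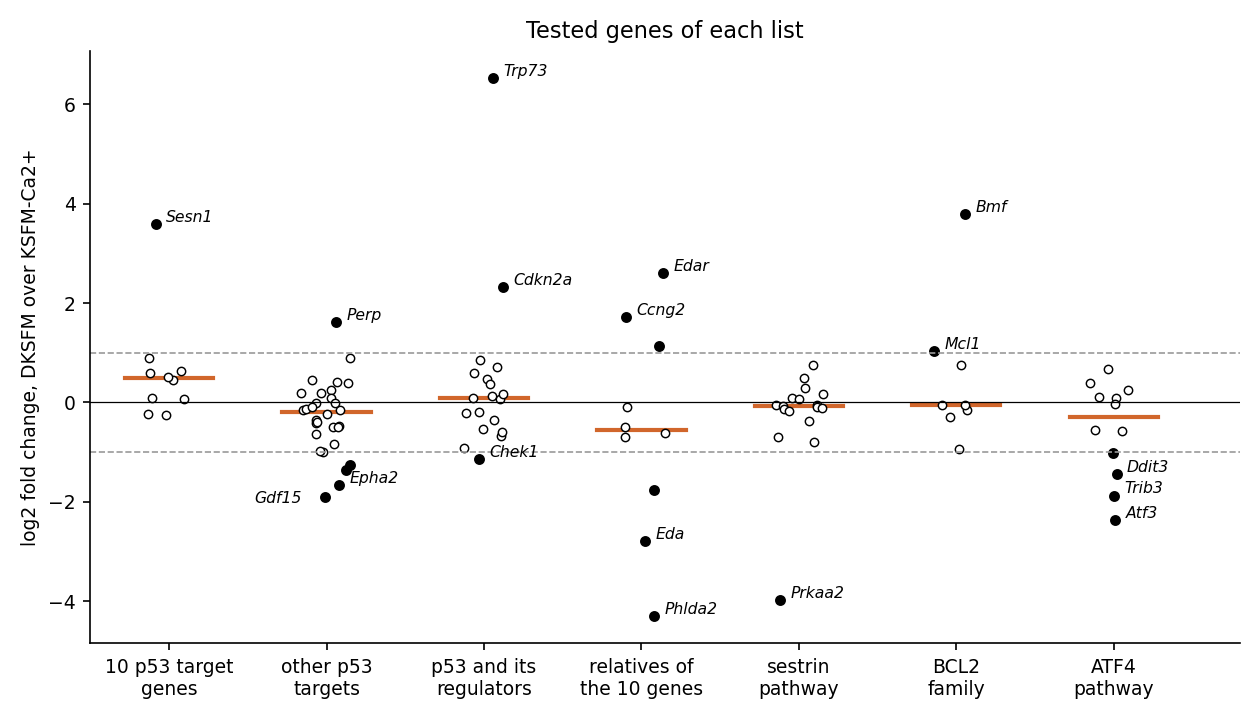
Log2 fold change, DKSFM over KSFM-Ca2+, of every tested gene of each list, with filled points past both thresholds (adjusted p of 0.01, 2-fold), open points for the others, and orange bars at the medians. Dashed lines mark a 2-fold change. *Sesn1* stands alone above the other 9 genes of its list, and the 30 other p53 targets have a median of -0.20.

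The partners of the cell death genes were set beside them. Of 13 further genes of the BCL2 family, without those given above, 8 passed the filter. Past the 2-fold threshold 2 of these were higher and none lower, compared with 13.2% and 10.5% of all tested genes. At any fold 3 were higher and 1 lower at an adjusted p under 0.01 (limma), compared with 35.5% and 37.1% of all tested genes. *Bmf*, a BH3-only gene, had 2.97, 2.18 and 2.48 in the KSFM-Ca2+ libraries and 34.8, 39.1 and 34.5 in those of the DKSFM line (log2 fold change 3.79 with a standard error of 0.11, limma adjusted p = 2.76e-08), a change as large as that of *Sesn1*. *Mcl1*, which encodes the survival protein bound by NOXA, had 99.6, 99.4 and 100 in the KSFM-Ca2+ libraries and 200, 210 and 204 in those of the DKSFM line (log2 fold change 1.04 with a standard error of 0.03, limma adjusted p = 1.78e-08). The ratio of *Mcl1* to *Pmaip1* was 0.632, 0.588 and 0.567 in the KSFM-Ca2+ libraries and at least 1.44 in every DKSFM library. Set against *Bax*, the coverage of *Bcl2l1*, which encodes the survival protein BCL-XL, was 5.90, 6.42 and 6.47 times as high in the KSFM-Ca2+ libraries and 2.27, 2.54 and 2.39 times as high in the DKSFM libraries. *Bcl2l1* was itself lower by less than 2-fold (log2 fold change -0.93), and the survival genes *Bcl2* (-0.05) and *Bcl2l2* (-0.15) did not pass the test.

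The proteins through which sestrins act, the GATOR complexes, AMPK, TSC and mTORC1, were looked up beside *Sesn1*. Of 17 genes, all tested, 9 had an adjusted p under 0.01, compared with 72.6% of all tested genes, and 1 passed the 2-fold threshold, compared with 23.7%, with a median log2 fold change of -0.07. That gene was *Prkaa2*, a catalytic subunit of AMPK, listed at 3.9, 2.5 and 2.5 in the KSFM-Ca2+ libraries and 0.1, 0.2 and 0 in those of the DKSFM line, and it passed the filter only through the KSFM-Ca2+ libraries. *Sesn2* can also be induced by the stress factor ATF4, so that genes of this pathway were looked up. Of 12 genes, 4 were lower in the DKSFM cells past the 2-fold threshold, compared with 10.5% of all tested genes, and none higher, compared with 13.2%. At any fold 6 were lower and 3 higher at an adjusted p under 0.01, compared with 37.1% and 35.5% of all tested genes, and those higher were *Ppp1r15a* (log2 fold change 0.67), *Eif2ak3* (0.40) and *Vldlr* (0.25), named after their values were seen. *Atf3* had 26.0 ± 0.831 in the KSFM-Ca2+ cells and 4.95 ± 0.439 in the DKSFM cells. *Trib3* had 118, 128 and 115 in the KSFM-Ca2+ libraries and 24.6, 46.4 and 30.8 in the DKSFM libraries, and *Ddit3* 118, 122 and 109 in the KSFM-Ca2+ libraries and 39.3, 53.9 and 36.8 in the DKSFM libraries. *Psat1*, named after its value was seen, had 572 ± 2.98 in the KSFM-Ca2+ cells and 283 ± 30.7 in the DKSFM cells. DKSFM replicate 2 was the highest library of its line for *Trib3*, *Ddit3*, *Psat1* (258, 317 and 274 in replicates 1 to 3) and *Sesn2*. It was also the highest for most genes of this list, though not for *Atf3*. Without DKSFM replicate 2 the log2 fold change of *Sesn2* was 0.03 in place of 0.07 and still did not pass the test. The part of this library in the values of the ATF4 pathway genes was not tested. *Atf3*, *Trib3*, *Ddit3* and *Psat1* were all lower, while *Sesn2* did not pass the test.

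The 10 genes lie on 8 chromosomes, and the changes of neighbouring genes were looked up beside them. For each gene, the median log2 fold change of the tested genes within 10 Mb on either side was taken relative to that of all tested genes, with positions from GENCODE M21 on GRCm38. *Sesn1* (chromosome 10, 41809935 to 41908424) had 50 such neighbours with a median of 0.27, and its own value of 3.59 lay above 98.0% of them. *Bax* (chromosome 7, 45461697 to 45466898) and *Bbc3* (chromosome 7, 16308393 to 16318205) lie in regions with medians above 0, at 0.55 over 134 genes and 0.53 over 146 genes. Past the 2-fold threshold, 39 neighbours of *Bax* were higher and 2 lower, and 32 of *Bbc3* were higher and 12 lower. Of all tested genes 13.2% were higher and 10.5% lower. *Bax*, at 0.46, was close to the median of its neighbours, and *Bbc3*, at 0.90, was above it by 0.38. *Pmaip1*, on chromosome 18, at -0.26, was also close to its 88 neighbours, whose median was -0.37.

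*Phlda3* (chromosome 1, 135766119 to 135769136), at 0.51, ran against its 89 neighbours, whose median was -0.46, and lay above 84.3% of them. *Eda2r* (chromosome X, 97333840 to 97377216), at 0.63, lay in a region with a median of 0.01 and was above 81.0% of its 63 neighbours. For the others the gene and the median of its neighbours were 0.07 and 0.12 for *Sesn2* (chromosome 4, 132492032 to 132510501), 0.59 and 0.27 for *Trp53inp1* (chromosome 4, 11156431 to 11174379), -0.24 and 0.10 for *Ccng1* (chromosome 11, 40748552 to 40755311), and 0.09 and -0.20 for *Zmat3* (chromosome 3, 32334792 to 32366014). The part of these regional differences in the small changes was not tested. *Sesn1*, *Phlda3* and *Eda2r* lay above the middle 50% of the genes around them, and the other 7 genes lay within it.

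**Figure D5:**
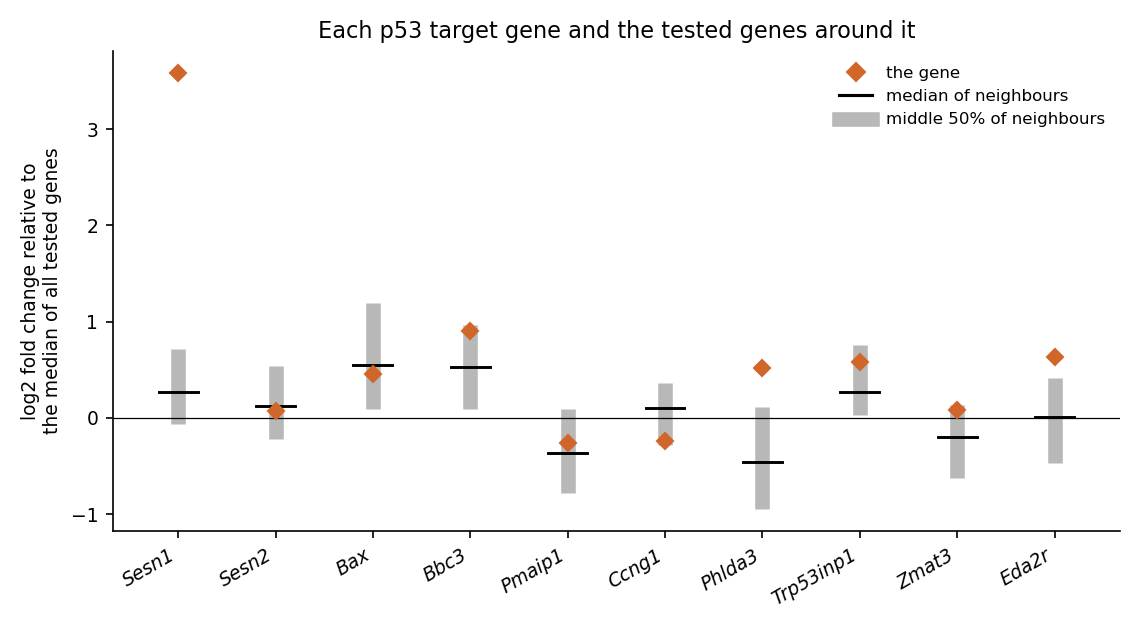
Log2 fold change, DKSFM over KSFM-Ca2+, relative to the median of all tested genes, of each of the 10 p53 target genes (diamonds) and of the tested genes within 10 Mb on either side (line at the median, grey bar over the middle 50%). *Sesn1* at 3.59 lies far above its neighbours, *Bax* at 0.46 lies near theirs at 0.55, and *Phlda3* at 0.51 lies opposite to theirs at -0.46.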

How the data were processed

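Directional poly(A) libraries, 3 from each line, were sequenced as single reads. The authors processed them with bcl2fastq, used STAR with RefSeq genes on mm10 for alignment and Salmon for quantification, and tested with DESeq2. The authors deposited a signal for each of 24982 genes, the mean read coverage per base, unscaled. How it was computed is not given in the sources used here. Coverage is not a count, so the count test allowed for in the design was not used and reads per gene are unknown. Samples were grouped by their titles. The 10 members and the other gene lists were chosen with earlier results of these data known.

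Libraries were scaled by trimmed means of M values without weights, trimming 30% by M and 5% by A (factors 0.991 to 1.01). A gene was tested where 3 or more libraries reached a scaled coverage of 0.5, which held for 12409 genes, all 10 members among them. limma 3.58.1 in R 4.3.3 fitted log2(coverage + 0.1) with an intensity trend and no covariate, a scale that understates changes of low genes. Adjustment of p followed Benjamini and Hochberg over every tested gene, and a gene passed at an adjusted p under 0.01 and 2-fold. Named were the 10 members, *Trp53*, *Mdm2* and *Cdkn1a*, the closest paralogues of members, and up to 3 risen and 3 fallen genes per list, those past the threshold by the largest fold. Of the markers, the most abundant of each cell type and those at 0 in every library were named. *Plk3*, *Psat1*, *Ppp1r15a*, *Eif2ak3*, *Vldlr*, *Bcl2*, *Bcl2l1*, *Bcl2l2*, *Trp63*, and the reference genes other than *Actb* fall outside this rule and were chosen after their values were seen. Positions came from GENCODE M21 for 12265 tested genes, promoters from RefSeq GRCm38.p6, the same build as mm10. Figures were drawn with matplotlib 3.10.9 in Python 3.11.15. The alternatives were other scalings, filters, pseudocounts and thresholds, no trend, a replicate block, limma's treat, each library left out, and the libraries whose file names say combined (KSFM-Ca2+ replicate 3 and all DKSFM replicates), a word the sources do not explain. Counts at an adjusted p of 0.01 without a fold change were added after the data were seen. A further reference gene is not reported here.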

Additional observations from a re-analysis of the deposited data

How the results depend on the processing

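*Sesn1* was past the threshold under all 18 alternatives fitted, with log2 fold changes from 3.46 to 3.84 and adjusted p-values from 8.25e-10 to 8.68e-05 (limma). The other members kept their direction too, except *Sesn2*, which did not pass the test and was at -0.0019 under quantile normalization. With 1 library left out, the number of members past the 2-fold threshold was 1 to 2, *Bbc3* joining *Sesn1* without KSFM-Ca2+ replicate 2, and the number of all genes was 2924 to 3005, of other p53 targets 5 to 7. Other targets came to 4, without *Gdf15*, with a pseudocount of 1, the filter on every library, treat and the combined libraries alone. The word combined in file names marks every DKSFM library and a single KSFM-Ca2+ library, so it is nearly confounded with the lines. As a covariate, or with those 4 libraries alone (filter on 1 library), it gave 2 members, *Sesn1* (3.84 in both) and *Bbc3* (1.02 in both). Both fits set KSFM-Ca2+ replicate 3 alone against the DKSFM libraries, and in those 4 libraries it is assumed to vary like the DKSFM group, so the highest adjusted p above rests on that assumption. Tested against a 2-fold change with limma's treat, 1847 genes passed in place of 2943. Under treat *Sesn1* passed, and no longer past an adjusted p of 0.01 were *Ccng1* (-0.24), *Bax* (0.45), *Bbc3* (0.90), *Pmaip1* (-0.26), *Phlda3* (0.51), *Eda2r* (0.63) and *Trp53inp1* (0.58), which treat asks to exceed 2-fold. A filter on every library gave 1987 genes, with fewer genes tested (11112). Quantile normalization gave 1463 higher and 1487 lower genes, compared with 1636 and 1307. Same-numbered libraries did not deviate together (correlations of deviations -0.01, 0.02 and -0.01 over genes), nor did libraries of unlike number (-0.04 to 0.04). The labels do not say whether the numbers pair the libraries, and these values cannot exclude a small shared effect. With a replicate block 2945 genes, 1 member and 5 other targets passed, and the block changed no call on members. The files give no read counts for a gene, so the precision behind a single coverage value is unknown, and genes near the rounding step of 0.1 have uncertain fold changes.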

Other observations

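Reference genes that are often taken as constant were listed too. Of 9 such genes 5 were lower in the DKSFM cells at an adjusted p under 0.01 and none higher (limma), compared with 37.1% and 35.5% of all tested genes. *Actb* passed the 2-fold threshold, with 3242 ± 288 in the KSFM-Ca2+ cells and 1617 ± 145 in the DKSFM cells (SD, n = 3), a 2.01-fold difference, and *Gapdh* (log2 fold change -0.60), *Sdha* (-0.59), *Polr2a* (-0.61) and *Pgk1* (-0.45) were lower by less. *Hprt*, *Tbp*, *Ppia* and *Ywhaz* lay between -0.06 and 0.06.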
